A study of Mus musculus with 8 samples.

Results

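The follicular helper T cell genes described here are 10 genes that mark or build the follicular helper T (Tfh) state: Bcl6, Maf, Tox, Tox2, Ascl2, Cxcr5, Sh2d1a, Il21, Sostdc1 and Angptl2. They were taken by symbol from a table of 18438 genes, and each was found on 1 row. The table holds messenger RNA levels of sorted spleen cells from C57BL/6 mice, taken on day 7 after MOG immunization had set off EAE, the mouse disease used as a model of multiple sclerosis. One sort kept CD4+ CD25hi YFP+ cells, the regulatory T cells (Treg), and the other CD4+ CD25- YFP- cells, called effector T cells (Teff). Both were made from wild type (WT) animals and from IRE1a-/- animals (KO). IRE1a is an enzyme of the endoplasmic reticulum membrane that senses unfolded proteins and splices the RNA of the transcription factor XBP1. The 4 groups, WT Treg, KO Treg, WT Teff and KO Teff, held 2 libraries each, all from mice with EAE, and no group without disease is included. The sources used here give neither the animals' age, nor the cells in which the gene was deleted, nor whether a library came from 1 animal or a pool. The spread behind the p-values is therefore only that between the 2 libraries of a group, and may be technical. The main fit pooled it over the 4 groups and drew it towards that of other genes of similar level.

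Tfh cells are CD4+ T cells that enter the B cell follicles of lymphoid organs and help B cells form germinal centres. The repressor BCL6 sets up the state, the chemokine receptor CXCR5 draws the cell towards the follicle, and interleukin-21 together with direct contact drives the B cell response. A related population of Treg, the follicular regulatory cells, also carries CXCR5 and BCL6 and restrains the germinal centre, so both sorts can hold cells with these transcripts. Tfh cells do not carry high CD25, so in this design they would fall in the Teff sort. Neither sort selected for CXCR5, and both hold a mixture of cells.

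The deposited values were normalized read numbers, which summed to 17504097 to 18751258 per library with 16324 to 16642 genes above 0. The libraries of a group correlated across well expressed genes at r = 0.977 to 0.982 in log2 values, without any identical pair. Markers of the labelled cells fitted the sort: Foxp3, the lineage factor of Treg, had 89.1 to 117 in the 4 Treg libraries and 0 to 8.29 in the 4 Teff libraries. Ern1, which encodes IRE1a, had a mean of 388 in WT Treg, 342 in KO Treg, 587 in WT Teff and 455 in KO Teff. Its difference between genotypes did not pass limma's test (adjusted p = 0.489 in Treg and 0.0902 in Teff), and a value over the whole gene is no check of the genotype, since the deleted stretch is not named. Tests were limma's, on log2(value + 1), adjusted by Benjamini-Hochberg over 13358 tested genes and called at an adjusted p under 0.05, so fold changes are on that log2 scale and understate changes of low genes. All 10 genes passed the filter on low values, and n is 2 libraries per group throughout.

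The genes lie on 9 chromosomes (GRCm38, whole genes with exons and introns). Bcl6 lies on chromosome 16 from 23965052 to 23988852, Maf on chromosome 8 from 115682942 to 115707794, Tox on chromosome 4 from 6686353 to 6991557, Tox2 on chromosome 2 from 163203125 to 163324170 and Ascl2 on chromosome 7 from 142966829 to 142969264. Cxcr5 lies on chromosome 9 from 44511787 to 44561877, Sh2d1a on chromosome X from 42502453 to 42529330, Il21 on chromosome 3 from 37222759 to 37232636, Sostdc1 on chromosome 12 from 36314139 to 36318452, and Angptl2 on chromosome 2 from 33216069 to 33247717. No strand-marking step is named in the protocols, so a gene's reads and those of an antisense partner could not be told apart. Exons of Cxcr5 shared 110 bases with the antisense gene Bcl9l, which had values of 4025 to 6221. Exons of Sh2d1a shared 1465 bases with Tenm1, which had only 5.66 to 19.5. Tox, Il21, Maf and Bcl6 overlapped the exons of antisense genes that are not analysed here, by 260, 469, 440 and 21 bases, while Angptl2 lay inside Ralgps1 with no shared exon base.

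The DNA before a start site is where such genes can be controlled together, and 5 of the 10 genes (Bcl6, Il21, Ascl2, Angptl2 and Tox2) had promoter entries in RefSeq (GRCm38.p6), with 10 windows in all. The 250 bases before the start are shown for 3 of them: Bcl6, the defining factor, at its outer start and at an inner start 7569 bases downstream, Il21, its cytokine, and Ascl2, which with Il21 was the least present in Treg. Each is written 5′ to 3′ on the gene's own strand, and capitals mark matches to 5 motifs searched on both strands: CCACG (the XBP1 core), TTCNNNGAA (the palindrome of BCL6 and STAT factors), CAGCTG (the E-box, a kind of site that ASCL2 binds), TGCTGA (the MAF half-site) and TGANTCA (the AP-1 site, which can share bases with the MAF half-site).
Bcl6 outer start, chr16:23988853-23989102, minus strand: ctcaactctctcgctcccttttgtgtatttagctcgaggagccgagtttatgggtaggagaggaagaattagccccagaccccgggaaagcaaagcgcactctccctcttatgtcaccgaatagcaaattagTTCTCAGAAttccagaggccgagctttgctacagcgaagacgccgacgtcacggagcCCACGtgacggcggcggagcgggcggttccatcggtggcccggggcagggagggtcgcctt
Bcl6 inner start, chr16:23981284-23981533, minus strand: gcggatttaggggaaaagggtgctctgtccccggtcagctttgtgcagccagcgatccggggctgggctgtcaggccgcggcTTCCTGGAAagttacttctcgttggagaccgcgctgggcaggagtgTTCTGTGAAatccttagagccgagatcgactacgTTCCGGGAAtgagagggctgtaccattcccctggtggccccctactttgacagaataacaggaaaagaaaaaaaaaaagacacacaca
Il21, chr3:37232637-37232886, minus strand: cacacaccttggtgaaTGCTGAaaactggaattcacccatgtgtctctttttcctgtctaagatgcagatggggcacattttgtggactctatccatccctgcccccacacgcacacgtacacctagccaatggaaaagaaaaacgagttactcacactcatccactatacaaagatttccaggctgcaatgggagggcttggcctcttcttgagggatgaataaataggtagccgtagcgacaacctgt
Ascl2, chr7:142969265-142969514, minus strand: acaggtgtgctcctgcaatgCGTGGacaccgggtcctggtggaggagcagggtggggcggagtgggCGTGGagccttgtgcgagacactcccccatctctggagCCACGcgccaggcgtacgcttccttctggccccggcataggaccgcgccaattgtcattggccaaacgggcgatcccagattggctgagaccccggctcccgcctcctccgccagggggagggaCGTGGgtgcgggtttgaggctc
The outer Bcl6 window held 1 XBP1 core, 61 bases before the start, and 1 BCL6 and STAT palindrome at 118 bases. The inner Bcl6 window held 3 palindromes, at 168, 122 and 88 bases, and no XBP1 core. Of the annotated Bcl6 transcripts, 0 held the bases just after the inner start and 1 held those after the outer start. The Ascl2 window held 4 XBP1 cores, at 230, 184, 146 and 22 bases, and the Il21 window 1 MAF half-site at 234 bases. Among the windows not shown, that of Angptl2 held 3 E-boxes and 3 of the 5 of Tox2 held an XBP1 core (windows of Tox2 overlap, and 2 of these 3 share 1 match), and the AP-1 site was in 0 of the 10 windows. Of all 32817 promoter windows of the same length, 28.3% held the XBP1 core, 7.01% the palindrome, 13.0% the E-box, 16.1% the MAF half-site and 6.75% the AP-1 site. These shares were not matched for base content. G and C made up 67.6% of the Ascl2 window, 58.4% and 54.8% of the outer and inner Bcl6 windows and 47.6% of the Il21 window. The median over all windows was 52.4%. A match describes the letters in the window and not a bound site.

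The first question was how much of each gene the sorted cells held. Per kilobase of exon, which allows levels of different genes to be compared, Sostdc1 was the most abundant of the 10 in WT Teff, at 911 ± 45.3 normalized reads per kilobase (SD, n = 2). Maf followed at 614 ± 19.3 and Tox2 at 467 ± 6.58. Cxcr5 had 282 ± 1.62 and Angptl2 258 ± 24.9, neighbours that differed by less than the SD of Angptl2. Tox had 226 ± 6.83. Bcl6 at 155 ± 5.86 and Il21 at 152 ± 3.12 could not be ranked within their spread, nor could Il21 and Sh2d1a, at 145 ± 9.90. Ascl2 came last at 48.7 ± 7.30. In WT Treg the order began with Maf at 856 ± 27.1, Sostdc1 at 436 ± 28.1 and Tox at 425 ± 1.89, the last pair within 1 SD of each other, and ended with Il21 at 12.0 ± 1.34 and Ascl2 at 5.73 ± 1.06. With the length of the longest transcript in place of all exon bases, Sostdc1 stayed first in WT Teff and Ascl2 last. By that length Angptl2 and Tox moved above Cxcr5 in WT Teff, and Sh2d1a above Bcl6 and Il21. In WT Treg Tox, at 816 per kilobase of longest transcript, moved above Sostdc1, at 436.

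The second question was what differed between KO and WT in Teff. The 10 Tfh genes were lower in KO Teff as a group. They were chosen with earlier results of these data known, so the counts that follow are descriptions. All 10 had both KO libraries below both WT libraries, a separation in that direction seen in 27.4% of all tested genes, and 8 of the 10 fell by limma's test, where 5.08% of all tested genes did and 1.84% rose. Higher and without overlap were 0 of the 10, against 22.4% of all tested genes. Their median log2 fold change was -0.81, against -0.02 over all tested genes. The log2 fold changes of those 8 ranged from -0.47 for Maf to -1.80 for Sostdc1, and the differences of Ascl2 and Sh2d1a did not pass. In a sorted mixture, fewer cells of a type and less RNA per cell cannot be told apart.

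**Figure D1:**
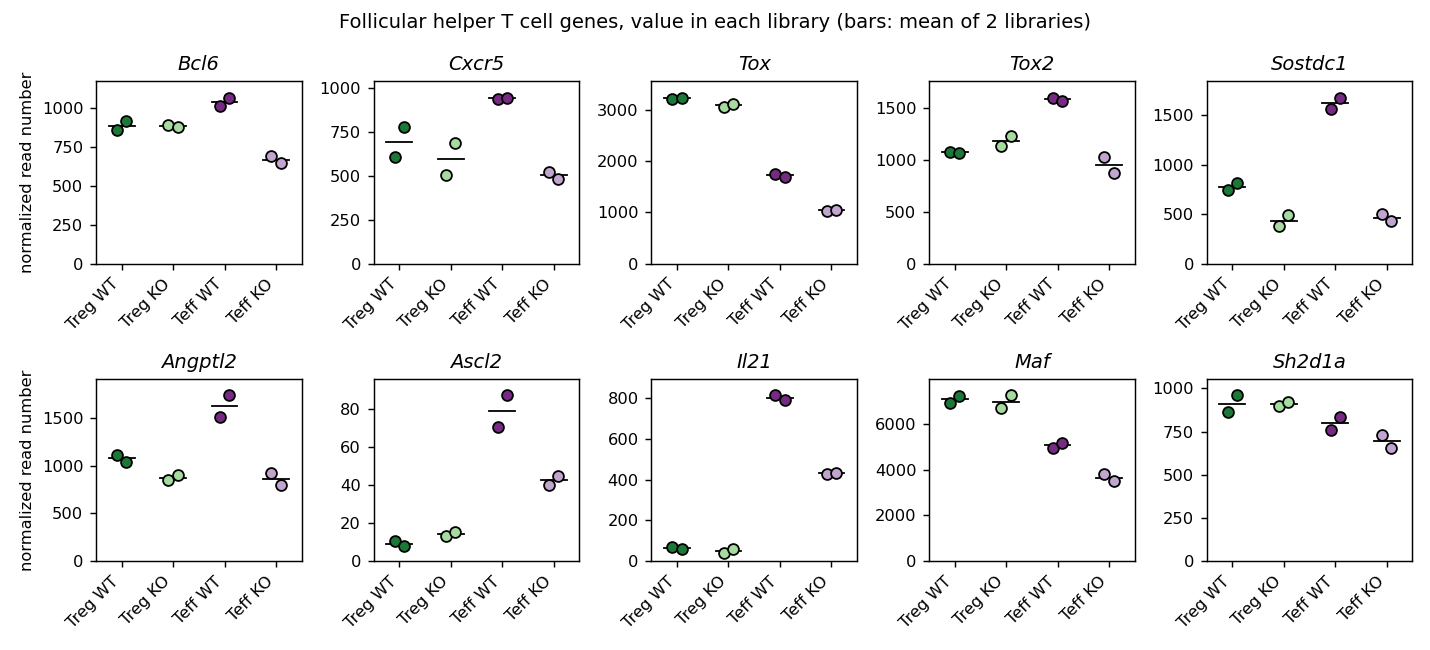
Normalized read number (y axis, linear, from 0) of each of the 10 genes in the 8 libraries, by group (x axis), with a point per library and a bar at the mean of 2 libraries. In every panel both KO Teff points lie below both WT Teff points, while the Treg points of the genotypes overlap for Bcl6, Cxcr5, Il21, Maf and Sh2d1a, and Il21 and Ascl2 are near 0 in Treg on this axis.

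Among the transcription factors, Bcl6 had 1012 and 1068 normalized reads in the WT Teff libraries and 692 and 647 in the KO Teff libraries. KO Teff held the lowest Bcl6 values of all 4 groups, below the 857 to 918 of Treg. The log2 fold change was -0.63 (SE 0.08, 95% interval -0.82 to -0.45, adjusted p = 0.00677). Tox and Tox2 encode a pair of related HMG-box factors that act in Tfh differentiation. Tox had 1759 and 1686 in WT and 1035 and 1049 in KO Teff (log2 fold change -0.72, SE 0.06, adjusted p = 0.00142). Tox2 had 1602 and 1571 in WT and 1030.4 and 870.2 in KO Teff (log2 fold change -0.74, SE 0.09, adjusted p = 0.00677). Both thus fell by a similar amount, to 60.5% and 59.7% of the WT level on the scale of the fit. Maf, a leucine-zipper factor that drives Il21 transcription, had the smallest of the called falls. It had 4949.8 and 5175 in WT and 3788 and 3503 in KO Teff (log2 fold change -0.47, SE 0.07, adjusted p = 0.00888). Ascl2, a basic helix-loop-helix factor that can induce Cxcr5, was the lowest of the 10 per kilobase. Its values of 70.7 and 87.4 in WT and 40.1 and 45.1 in KO Teff gave a log2 fold change of -0.87, with an interval of -1.56 to -0.18, and did not pass (adjusted p = 0.14).

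Of the receptor and adaptor genes only that of the receptor passed in Teff, and their effects were not tested against each other. Cxcr5 encodes the receptor for CXCL13, the chemokine of the B cell follicle, and had 935 and 943 in WT against 523 and 483 in KO Teff. The 4 values fell into separate pairs, with a log2 fold change of -0.90 (SE 0.17, 95% interval -1.29 to -0.51, adjusted p = 0.0244). Sh2d1a encodes SAP, the adaptor that SLAM family receptors need for lasting contact between T and B cells. It had 759.8 and 837 in WT and 729.9 and 656 in KO Teff, a log2 fold change of -0.20 with an interval of -0.43 to 0.02 (adjusted p = 0.282). Its libraries did not overlap, but the difference was the smallest of the 10.

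All 3 genes of secreted products fell. Sostdc1 encodes an antagonist of BMP and Wnt signals and is a known Tfh product. It went from 1565 and 1679 in WT to 497 and 433 in KO Teff, which is 3.49-fold lower (log2 fold change -1.80, SE 0.14, 95% interval -2.14 to -1.47, adjusted p = 0.00143). Il21, the cytokine that supports germinal centre B cells, had 812 and 789 in WT and 427 and 433 in KO Teff (log2 fold change -0.90, SE 0.18, adjusted p = 0.0322). The KO libraries thus held 53.8% of the WT Il21 level on that scale. Angptl2, which encodes a secreted angiopoietin-like protein, had 1513 and 1735 in WT and 919 and 799 in KO Teff (log2 fold change -0.92, SE 0.10, adjusted p = 0.00489). The calls of Tox, Tox2, Sostdc1 and Angptl2 held under each of 19 alternative settings. That of Cxcr5 was lost without any single Teff library (adjusted p up to 0.117), that of Il21 without any single Teff or WT Treg library (up to 0.129), and that of Maf without WT Teff replicate 2 (0.0513). With only the 2 Teff groups fitted Bcl6 and Maf were lost, and with neither trend nor robust shrinkage Cxcr5, Il21 and Maf. In the authors' deposited table the same 8 genes had an adjusted p under 0.05 in Teff, with the log2 fold change of Sostdc1 at -1.80 and of Bcl6 at -0.64, and Ascl2 and Sh2d1a did not (adjusted p = 0.419 and 0.501).

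Markers of several other cells and states moved in the same comparison, and their part in the result was not tested. Th17 markers did not, with 0 of 5 called and sums of 1580 to 1757 in WT and 1626 to 1644 in KO Teff. The 2 CD8 T cell markers, 0 of them called, summed to 250 to 277 in WT and 270 to 289 in KO Teff. Of 10 proliferation genes 5 fell in KO Teff and 0 rose, and the list summed to 10716 to 11327 in WT and 6923 to 7514 in KO. Of 5 Th1 genes 4 fell, with sums of 5347 to 5621 in WT and 3186 to 3217 in KO. B cells also express Bcl6 and Cxcr5. The 10 B cell markers summed to 692 to 856 in WT Teff and 391 to 428 in KO Teff, with 1 called lower. That marker was Cd22, which made up most of the WT sum, while Ms4a1, which encodes the B cell surface protein CD20, had 11.4 to 30.5 in the Teff libraries. The KO Teff sum of 428, that of replicate 2, includes a high value of the marker Pax5, given in the last paragraph. The 6 markers of regulatory T cells summed to 9077 to 10354 in WT and 6356 to 7176 in KO Teff, with Nrp1, Ikzf2 and Ctla4 lower and Foxp3, at 0 in both WT libraries, higher. Natural killer and NKT markers (0 of 4 tested called) summed to 1132 to 1309 in WT and 843 to 979 in KO Teff, monocyte and macrophage markers (0 of 7) to 698 to 1472 and 495 to 646, and dendritic cell markers (1 of 6 lower) to 1796 to 2618 and 1181 to 1604. Of 2 tested plasma cell markers Jchain fell, with sums of 128 to 178 in WT and 53.5 to 62.7 in KO Teff. Of 8 genes of stress after sorting Fos, Atf3 and Hspa1b fell, with sums of 93806 to 98117 and 82159 to 98491. No marker of the B cell, natural killer, monocyte and dendritic cell lists was at 0 in every library of a Teff group. The 5 T cell markers matched in the table summed to 62888 to 64024 in WT and 59275 to 59547 in KO Teff.

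The third question was whether KO Treg differed from WT Treg in the same genes. Of the 10, only Sostdc1 passed the test in Treg, where 1 of 10 fell and 0 rose, against 0.779% and 0.674% of all tested genes. The median log2 fold change of the 10 was -0.04, against -0.01 over all tested genes. Sostdc1 had 740.3 and 811 in WT Treg and 378 and 493 in KO Treg (log2 fold change -0.84, SE 0.14, 95% interval -1.18 to -0.51, adjusted p = 0.0429). Both KO libraries lay well below both WT libraries. The call was close to the threshold and was lost in 10 of 19 alternatives, among them every fit without a single library but KO Treg replicate 2, with an adjusted p of up to 0.230. The authors' deposited table gave Sostdc1 a log2 fold change of -0.83 with an adjusted p of 9.10e-05 in Treg, and none of the other 9 genes an adjusted p under 0.05.

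The 5 transcription factors and Cxcr5 did not pass in Treg. Bcl6 had 857 and 918 in WT and 888 and 882 in KO Treg, and the interval of its log2 fold change ran from -0.19 to 0.19. The KO values lay between the WT values. Maf had 6896 and 7212 in WT and 6686 and 7233 in KO Treg (interval -0.17 to 0.13), and Tox had 3224 and 3244 in WT and 3064 and 3119 in KO Treg (interval -0.20 to 0.07). These are the factors with the tightest bounds. Tox2 had 1077 and 1069.6 in WT and 1139.7 and 1232 in KO Treg, so that both KO libraries were the higher ones (log2 fold change 0.14, interval -0.08 to 0.37, adjusted p = 0.554). Ascl2 was near the floor, with 10.5 and 8.09 in WT and 13.6 and 15.4 in KO Treg (log2 fold change 0.60, interval -0.09 to 1.29, adjusted p = 0.419). Cxcr5 had 608 and 775 in WT and 505 and 684 in KO Treg. The libraries of the 2 genotypes overlapped (log2 fold change -0.22, interval -0.62 to 0.17, adjusted p = 0.607).

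The adaptor and the other secreted products also did not pass in Treg. Sh2d1a had 865 and 960.1 in WT and 899 and 924 in KO Treg (interval -0.23 to 0.23). Il21 was low in Treg, with 68.0 and 58.0 in WT and 42.1 and 58.1 in KO (log2 fold change -0.34, interval -0.77 to 0.09, adjusted p = 0.467). Angptl2 had 1113 and 1042 in WT and 846 and 899.9 in KO Treg. Both KO values were below both WT values, with an interval of -0.55 to -0.06 and an adjusted p of 0.238. Over the 10 genes, the libraries did not overlap for 3 that were lower in KO (Tox, Sostdc1 and Angptl2) and 2 that were higher (Tox2 and Ascl2), shares to be read against the 25.9% and 22.8% of all tested genes. Beside these values, monocyte and macrophage markers summed to 12835 to 13210 in WT Treg and 7510 to 7876 in KO Treg with 0 of 7 called. Proliferation markers summed to 11998 to 12679 and 9607 to 9991 with 2 of 10 lower. The part of either in the Sostdc1 result was not tested.

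**Figure D2:**
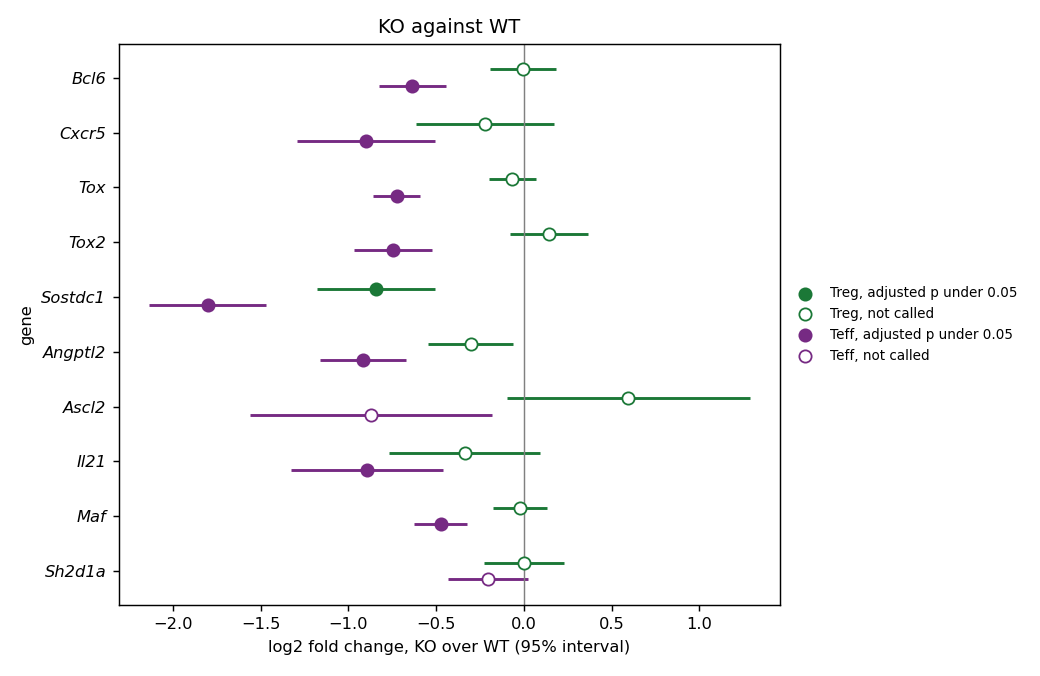
Log2 fold change of KO over WT (x axis) for each of the 10 genes (y axis) in Treg (green) and Teff (purple), with the 95% interval of limma's estimate as a line, filled points for an adjusted p under 0.05 and open points otherwise. All 10 Teff estimates lie below 0, from -0.20 for Sh2d1a to -1.80 for Sostdc1, while the Treg estimates lie on both sides of 0, from -0.84 for Sostdc1 to 0.60 for Ascl2.

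A gene called in Teff and not in Treg is not thereby shown to differ between them, so the difference of the KO effects was tested itself. By limma's test 0 of the 10 genes passed, where 0.0225% of all tested genes did. At an unadjusted p under 0.05 there were 8 of the 10, against 10.4% of all tested genes. All 10 estimates (effect in Treg minus effect in Teff) were above 0, with a median of 0.65 against 0.02 over all tested genes. Each estimate contains the Teff effect with its sign reversed, so these counts restate in part the fall in KO Teff. The estimate for Tox was 0.66 (SE 0.08, 95% interval 0.47 to 0.85, adjusted p = 0.0719), for Tox2 0.89 (interval 0.57 to 1.2, adjusted p = 0.104) and for Bcl6 0.63 (interval 0.36 to 0.90, adjusted p = 0.146). Sostdc1, lower in KO in both cell types, had 0.96 (interval 0.49 to 1.43, adjusted p = 0.165). Tox2 and Ascl2 had both KO libraries above both WT libraries in Treg and below them in Teff. For Ascl2 the difference was 1.47 with an interval of 0.49 to 2.44 and an adjusted p of 0.299.

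The last comparison set Treg against Teff within each genotype. It shares its Teff libraries with the comparison of KO and WT Teff, so the values are given side by side. In WT, Treg held less of the Tfh secreted products and more of Tox and Maf. Of the 10 genes 5 were lower in WT Treg and 2 higher, where 11.6% and 13.5% of all tested genes were. Il21 differed most, with 58.0 to 68.0 in WT Treg and 789 to 812 in WT Teff (log2 fold change -3.65, SE 0.18, adjusted p = 2.72e-05), which is 12.6-fold lower. Ascl2 was 7.78-fold lower, with 8.09 to 10.5 against 70.7 to 87.4 (log2 fold change -2.96, SE 0.29, adjusted p = 0.000457). These were the 2 genes of the list found mainly in Teff. The log2 fold changes of Sostdc1, Angptl2 and Tox2 were -1.06, -0.59 and -0.56, with adjusted p-values of 0.00166, 0.00577 and 0.00460. Tox, with a log2 fold change of 0.91, and Maf, with 0.48, were higher in WT Treg (adjusted p = 6.64e-05 and 0.00178). Bcl6, Cxcr5 and Sh2d1a did not pass, with log2 fold changes of -0.23, -0.45 and 0.19 (adjusted p = 0.0807, 0.0942 and 0.201). The Treg values of Bcl6 and Cxcr5 were all below the Teff values. In all, 7 genes were lower without overlap and 3 higher, against 31.5% and 32% of all tested genes.

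In KO the order between the cell types was another for several genes. Of the 10, 5 were higher and 2 lower in KO Treg, where 15.7% and 11.2% of all tested genes were. Bcl6, which did not pass in WT, was higher in KO Treg, with 882 to 888 against 647 to 692 in KO Teff (log2 fold change 0.40, SE 0.08, adjusted p = 0.00932). Without KO Treg replicate 1 its adjusted p was 0.0534. Tox2, lower in WT Treg, was higher in KO Treg by 0.32 (adjusted p = 0.0419), a call that held in 6 of 19 alternatives and was lost without any single library other than KO Teff replicate 1. Tox was higher by 1.57 and Maf by 0.93 (adjusted p = 6.93e-06 and 7.15e-05). Sh2d1a was higher by 0.40 (adjusted p = 0.0216), a call lost without either KO Treg library or KO Teff replicate 2. Sostdc1 and Angptl2 no longer differed beyond their spread (log2 fold change -0.10 with an interval of -0.44 to 0.23, and 0.03 with -0.22 to 0.27, signs that turn under some settings), and Cxcr5 had 505 to 684 in KO Treg against 483 to 523 in KO Teff. Il21 was again lower in Treg (log2 fold change -3.09, adjusted p = 3.81e-05), as was Ascl2 (-1.49, adjusted p = 0.00871). Without overlap, 5 genes were higher and 2 lower, against 32.9% and 32.1% of all tested genes. For these genes the change of order is the difference of KO effects given above, which did not pass its own test.

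**Figure D3:**
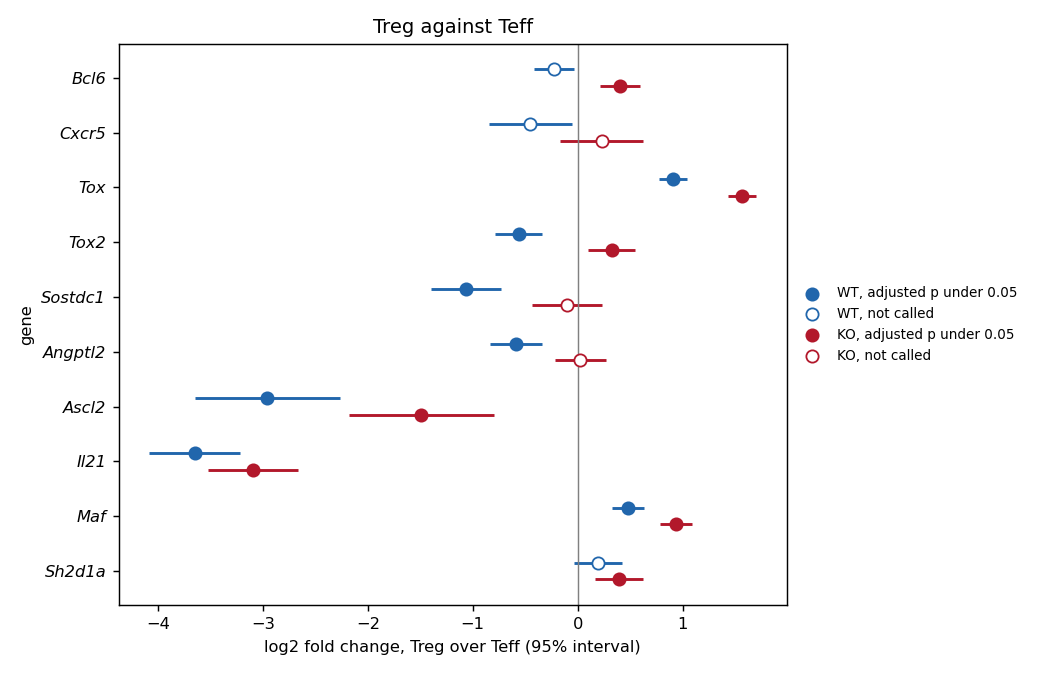
Log2 fold change of Treg over Teff (x axis) for each of the 10 genes (y axis) in WT (blue) and KO (red), with the 95% interval of limma's estimate as a line, filled points for an adjusted p under 0.05 and open points otherwise. Il21 and Ascl2 lie far to the left in both genotypes, Tox and Maf to the right, and Bcl6, Cxcr5 and Tox2 below 0 in WT and above 0 in KO.

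The monocyte and macrophage markers summed to 12835 to 13210 in WT Treg and 698 to 1472 in WT Teff, and 7 of 7 tested were higher in Treg. Macrophages can express Maf as well. Maf had 6896 to 7212 in WT Treg and 6686 to 7233 in KO Treg, while those markers were 7510 to 7876 in KO Treg. The part of these cells in the level of Maf was not tested. Markers of several other cell types moved the same way as Il21 and Ascl2. In WT Treg 4 of 4 tested natural killer and NKT markers were lower (sums of 76.8 to 103 against 1132 to 1309 in WT Teff), 5 of 5 Th1 markers (2567 to 2591 against 5347 to 5621), 4 of 5 Th17 markers (717 to 744 against 1580 to 1757) and 4 of 6 dendritic cell markers, with 1 higher (1418 to 1431 against 1796 to 2618). In KO Treg the counts lower were 4 of 4, 4 of 5, 5 of 5 and 4 of 6. Their part in the differences of Il21 and Ascl2 was not tested.

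The other genes of the Tfh pathway were followed in 6 lists of 84 genes, all of them tested. In KO Teff 30 of the 84 fell and 1 rose, with a median log2 fold change of -0.28, beside 5.08% and 1.84% of all tested genes. In KO Treg 1 fell and 2 rose, with a median of -0.05. The list closest to the 10 genes was that of surface receptors and secreted molecules of Tfh, in which 11 of 16 fell in KO Teff with a median of -0.66. Among them Pdcd1, the gene of the inhibitory receptor PD-1 and a standard Tfh marker, had 1166 and 1315 in WT and 767 and 784 in KO Teff (adjusted p = 0.00511). P2rx7, an ATP-gated channel that restrains Tfh numbers, fell by 0.64 on the log2 scale, Izumo1r, a folate receptor family member (FR4) found on Tfh and Treg, by 0.51, and Tigit, an inhibitory receptor, by 0.80 (adjusted p = 0.00240, 0.00360 and 0.00459). In KO Treg the median of the 16 genes was -0.06. These genes are not particular to Tfh: 10 of the 16 were higher in WT Treg than in WT Teff and 5 lower, beside 13.5% and 11.6% of all tested genes.

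Inducing signals and partner factors fell in part. Of 12 genes for cytokine receptors, STAT factors and costimulation 4 fell in KO Teff, with a median of -0.28. Among them were Tnfrsf4, which encodes the costimulatory receptor OX40 (-0.87), Stat4 (-0.42) and Icos, the costimulator that sustains BCL6 (-0.42), with adjusted p = 0.00246, 0.00677 and 0.0260. The call of Tnfrsf4 held in all 19 alternatives, while that of Icos was lost in 7, 5 of them fits without any single WT library or KO Teff replicate 2 (adjusted p up to 0.114). Of 14 transcription factors listed as partners of BCL6, 5 fell, with a median of -0.18. That list was not split by whether a factor favours or limits the Tfh state. Irf4 and Batf, which work as partners at receptor-induced genes, had log2 fold changes of -0.86 and -0.53 (adjusted p = 0.00438 and 0.00647). Pou2af1, a coactivator of octamer-binding factors, went from 601 and 620.3 to 363 and 375 (adjusted p = 0.0264), a call lost without any single Teff library (up to 0.122), and Bhlhe40 changed by -1.15 (adjusted p = 0.00750). Tcf7, which precedes Bcl6 in Tfh differentiation, was not called, with 29889 and 25303 in WT and 31954 and 32528 in KO Teff. In KO Treg, Irf4 was the 1 gene of both lists that fell (log2 fold change -0.56, adjusted p = 0.0429), a call lost in 8 of 19 alternatives, among them every fit without a Treg or KO Teff library (adjusted p up to 0.224).

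SLAM family receptors, the partners of the Sh2d1a product, fell in part as well, with 3 of 12 genes of that list lower in KO Teff and a median of -0.27. Slamf6 had 7330.3 and 7302 in WT and 6255 and 6326 in KO Teff (adjusted p = 0.0360), Slamf1 1128 and 1235 in WT and 975 and 875 in KO (adjusted p = 0.0470), and Slamf7 265 and 301 in WT and 163 and 157 in KO (adjusted p = 0.0290). The calls of Slamf6 and Slamf1 were each lost in 15 of 19 alternatives, among them every fit without a single library and 3 of the scalings, and that of Slamf7 in 8, so the count of 3 is not firm. Cd84 and Ly9, which also bind SAP, were not called, with 3382 and 3834 against 3238 and 3038, and 3904 and 4079 against 3759 and 3901. Cd48 had 2591 and 3031 in WT and 2311 and 2176 in KO, and Cd244a, at 33.5 to 59.9, was low in Teff.

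Genes of migration and genes that oppose the Tfh state had medians near 0. Of 14 migration genes 4 fell and 1 rose in KO Teff, with a median of -0.08. Ccr7, which keeps T cells in the T cell zone and falls as Tfh form, rose from 5543 and 5163 to 7447 and 6774 (log2 fold change 0.41, adjusted p = 0.0136). Rgs16, a brake on chemokine receptor signals, changed by -0.996 and Cxcr3, a receptor of Th1 cells, by -0.80 (adjusted p = 0.00717 and 0.00144). In KO Treg 2 genes of this list rose, among them S1pr1, the receptor for exit from lymphoid tissue (log2 fold change 0.60, adjusted p = 0.00155). Of 16 opposing genes 3 fell in KO Teff and 0 rose, with a median of -0.01. These were Tbx21, the Th1 factor (-0.99), Il2rb, an interleukin-2 receptor chain (-0.56), and Trib1 (-0.74), with adjusted p = 0.00582, 0.00584 and 0.0211. Prdm1, which encodes BLIMP-1, the antagonist of BCL6, was not called, with 329 and 428 in WT and 314 and 279 in KO Teff. The 10 genes and these lists were chosen with earlier results of these data known, so their counts are descriptions.

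**Figure D4:**
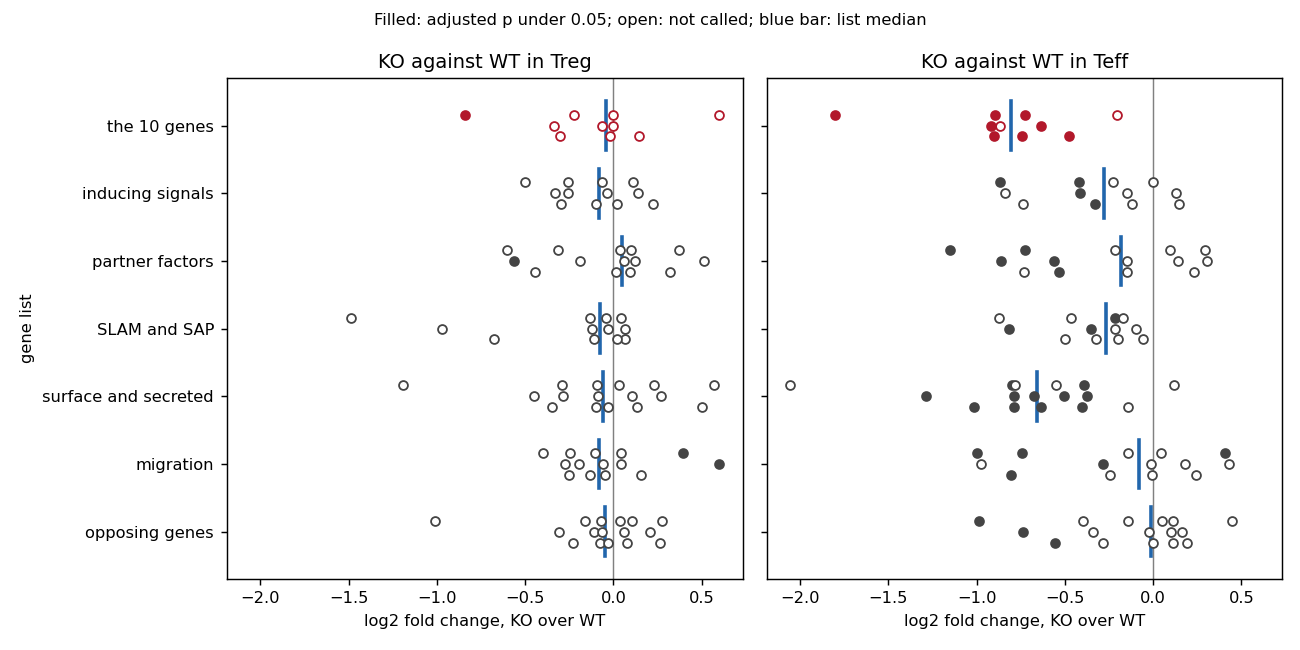
Log2 fold change of KO over WT (x axis) in Treg (left) and Teff (right) for the 10 genes (red) and for the members of 6 lists of the pathway (grey, y axis), with a point per gene, filled for an adjusted p under 0.05, and a blue bar at the list median. In Teff the median is -0.81 for the 10 genes and -0.66 for surface and secreted molecules, and lies at -0.08 and -0.01 for migration and opposing genes; in Treg the medians lie between -0.08 and 0.05.

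Each of the 10 genes was compared with all other tested genes by the root mean square difference between their log2 values, each centred on its own mean over the 8 libraries, and some of the nearest genes are named. This is a description of likeness over 8 libraries that share the same sorts. The nearest to Bcl6 were Epsti1 and Cd44, a marker of activated T cells, at 0.06 and 0.08, where the median over all genes was 0.36. Cxcr5 lay nearest to the chemokine receptor gene Cxcr3 (0.14), which was also among the 3 nearest to Angptl2 (0.08). Il21 lay nearest to Il12rb2, a subunit of the interleukin-12 receptor (0.23), with a median over all genes of 1.74. Sostdc1 lay nearest to Csf2rb, a shared receptor chain of myeloid cytokines (0.15), which had means of 126 in WT Treg, 62.5 in KO Treg, 203 in WT Teff and 64.2 in KO Teff. Tox lay nearest to Lxn (0.06), Tox2 to the calcium-binding protein gene S100a4 (0.09), Maf to Clstn1 (0.06), Ascl2 to Cpne7 (0.20) and Sh2d1a to Adprh (0.04).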

How the data were processed

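Polyadenylated RNA from 8 spleen T cell libraries was sequenced as single-end 50-base reads on a DNBSEQ instrument, per the labels' protocols. The submitters' processing notes name Salmon 0.14.1, DESeq2 1.28.1, Trim Galore 0.4.4 and R 4.0.3, and build mm10. They give no way of summing transcripts to genes. The deposited signal values are normalized read numbers that are not whole: only 48.4% to 55.1% of values under 50 reads were whole multiples of the commonest step (tolerance 0.02), so no count test was run and exact depth is unknown. The authors also deposited log2 fold changes and adjusted p-values of KO over WT, used only where named.

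The model was limma 3.58.1 under R 4.3.3, fitted to log2(value + 1) with a mean for each of the 4 groups, which leaves 4 residual degrees of freedom, and with trended, robust shrinkage of variances. It took genes that reached 10 in 2 or more libraries. Intervals are limma's, at 95%. Each library was grouped by its cell type and genotype label. The fit was tested on simulated data. Gene coordinates and exon lengths came from GENCODE M21 (GRCm38, also called mm10), where all 18438 identifiers were found, 17918 with the same version. Promoter sequences are from RefSeq. Python 3.11.15, pandas 2.3.3, numpy 2.4.6 and matplotlib 3.10.9 were used.

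All 10 genes were described. From the pathway lists, up to 4 called genes of smallest p per list and comparison could be named, with the SLAM receptors and the TOX paralogs. The uncalled Tcf7 and Prdm1 were named after their values were seen. The 3 nearest genes per member were found, of which those in the text are named. A few genes that the rule names are not reported here. The genes and lists were chosen with earlier results of these data known. Alternatives were other pseudocounts (0.5 and 5), filters, scalings, shrinkage, samples in the fit, a replicate block and leaving out each library.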

Additional observations from a re-analysis of the deposited data

Results flagged for a closer look

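The libraries of Tox2 and Ascl2 separated in opposite directions in the 2 cell types: both KO libraries lay above both WT libraries in Treg and below them in Teff. The difference of the KO effects (Treg minus Teff) was 0.89 on the log2 scale for Tox2 (SE 0.13) and 1.47 for Ascl2 (SE 0.42). Neither passed limma's test, with adjusted p = 0.104 for Tox2 and 0.299 for Ascl2, and the values of Ascl2 in Treg were at most 15.4 normalized reads.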

How the results depend on the processing

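With 2 libraries per group, some calls were lost with other estimates of the spread and some with other scalings. Of 23 calls of a gene in a comparison, 15 held under each of the 19 alternatives tried (18 for the difference of effects) and 8 were lost under at least 1, while 0 of the 27 uncalled pairs were called under any; 0 of the 23 changed sign. The count of the 10 genes called in KO against WT Teff was 8 under both other pseudocounts, both filters and all 4 scalings, 5 with neither trend nor robust shrinkage, 6 in a fit of the 2 compared groups alone, and 5 to 8 when single libraries were left out. In Treg it was 1, and 0 with neither trend nor robust shrinkage, with only the groups compared or with the replicate block, and 0 to 1 without single libraries. For Treg against Teff in KO it was 7, and 6 without a filter, with upper-quartile scaling and with quantile normalization. It was also 6 with neither trend nor robust shrinkage, with only the groups compared and with the replicate block. The count was lower still without KO Treg replicate 1, KO Treg replicate 2 or KO Teff replicate 2, fits that leave 1 library in a group. Counts over all genes went from 194 to 114 with the replicate block and 44 to 192 without single libraries in Treg. In Teff they went from 924 to 571 with neither trend nor robust shrinkage, 210 with only the groups compared and 347 to 642 without single libraries. For the difference of effects they went from 3 to 6 with pseudocount 5, 5 without a filter, 5 with equal library totals, 11 with neither trend nor robust shrinkage and 0 to 3 without single libraries. Without single libraries they were 2086 to 3315 (3357 with all) for WT Treg against WT Teff, and for the KO pair 2351 to 3572 (3597 with all). Fewer samples were in those fits; the cause of the other shifts was not tested.

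Directions changed only for differences near 0 that were never called. In KO against WT Treg, Bcl6 was at 0.015 with equal library totals, 0.0022 with TMM scaling, 0.017 with upper-quartile scaling, 0.014 with quantile normalization, 0.047 without WT Treg replicate 2 and 0.0023 without KO Treg replicate 2, with a range of -0.053 to 0.047 without single libraries. Maf was at 0.00028 with upper-quartile scaling, 0.012 without WT Treg replicate 2 and 0.037 without KO Treg replicate 1 (range -0.077 to 0.037). Sh2d1a was at -0.075 without WT Treg replicate 1 and -0.020 without KO Treg replicate 2 (range -0.075 to 0.075). For Treg against Teff in KO, Angptl2 was at -0.0055 with upper-quartile scaling, -0.00023 with quantile normalization, -0.019 without KO Treg replicate 2 and -0.076 without KO Teff replicate 2 (range -0.076 to 0.13), and Sostdc1 at 0.089 without KO Treg replicate 1 (range -0.30 to 0.089).

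Deviations from the group means correlated at -0.04 to 0.08 between libraries of the same replicate number. Such a value cannot show whether these libraries shared animals, and the main fit took no pairing. With the replicate block, 7 of the 10 genes were called in KO against WT Teff, where Il21 was lost, 7 between the cell types of WT mice, 6 between those of KO mice, and 0 for the difference of effects. Of all 13358 tested genes, that fit called 688, 3100, 3375 and 2 in the same order.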

Other observations

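Relatives of the 10 genes were measured as well. Of the other TOX genes, Tox3 was listed at 0 in all 4 Treg libraries and at 0.729 to 2.64 in Teff, and Tox4 had 2055 to 2578 in all 8 libraries. Bcl6b had at most 6.88. Il2, the cytokine gene related to Il21, had 54.2 and 51.4 in WT Teff, 25.8 and 34 in KO Teff and at most 3.93 in Treg. Il4, a further Tfh cytokine, had 51.4 and 68.1 in WT Teff and 44.3 and 36.2 in KO Teff.

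The B cell factor gene Pax5 stood at 162 to 178 in both KO Treg libraries and in KO Teff replicate 2, and at 2.87 to 17.7 in the other 5 libraries, while Ms4a1, another B cell gene, was at most 30.7 in every library. Pax5 was picked after its values were seen.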
